A study of Homo sapiens with 8 samples.

Results

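The alcohol dehydrogenase genes of human chromosome 4 stand side by side in one cluster, and the H3K27ac peaks of A549 cells were examined across all 7 of them: ADH5, ADH4, ADH6, ADH1A, ADH1B, ADH1C and ADH7. Any peaks of the 6 libraries that shared 1 bp or more were joined into one region, and the regions between the outermost genes plus 50 kb on each side were kept (GRCh37, chr4:99942129-100406667, 464.539 kb). This gave 12 regions of the 49186 in the whole series. The cluster was selected on measured values of the same contrast: the region upstream of ADH7 was among the largest falls with NRF2 siRNA. The differences between groups inside the cluster are therefore given as a description, with no test. Limma counts for its regions are printed only in the closing section on processing, and nothing is read from them. Score changes of its regions and their SEs come from the same limma fit and are likewise a description.

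The study mapped H3K27ac, a histone mark of active promoters and enhancers, by chromatin immunoprecipitation and sequencing in A549, a lung adenocarcinoma line in which mutant KEAP1 no longer restrains the transcription factor NRF2. Cells were harvested 48 h after transfection, 3 libraries with control siRNA and 3 with NRF2 siRNA, and the labels name no other treatment. Replicate 1 of the NRF2 siRNA group received siRNA 28 and replicates 2 and 3 received siRNA 30. All libraries come from 1 cell line under transient knockdown, and the study describes the replicates as independent experiments. The peak lists hold no measure of NRF2 itself, so the knockdown could not be checked here.

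Alcohol dehydrogenases are zinc enzymes that oxidise alcohols to aldehydes with NAD as the electron acceptor, and aldehyde dehydrogenases carry the products on to acids. The products of ADH1A, ADH1B, ADH1C and ADH4 are best known for ethanol oxidation in the liver. ADH5 encodes the ubiquitous enzyme that removes formaldehyde bound to glutathione, and ADH6 is the least studied member. ADH7 encodes the enzyme of the upper digestive epithelium, which oxidises ethanol and also retinol, the first step from vitamin A to retinoic acid. NRF2 binds with small MAF proteins to antioxidant response elements (AREs), whose core resembles and often contains the site of AP-1 factors.

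The region upstream of ADH7 lay at chr4:100366373-100370254, 3882 bp long and 9706 bp upstream of the gene's outermost start, between genes and outside every annotated exon, intron or UTR. Its 3 control peaks shared a stretch of 2360 bp (chr4:100367234-100369593). The middle of this stretch was 10 bp from a match to the ARE core, TGACNNNGC on either strand. The 300 bases around that match are shown because they hold the centre of the acetylated stretch (GRCh37, chr4:100368254-100368553, plus strand, capitals marking the ARE core on the minus strand, which overlaps an AP-1 match, and a second AP-1 match, TGANTCA).
Centre of the region upstream of ADH7: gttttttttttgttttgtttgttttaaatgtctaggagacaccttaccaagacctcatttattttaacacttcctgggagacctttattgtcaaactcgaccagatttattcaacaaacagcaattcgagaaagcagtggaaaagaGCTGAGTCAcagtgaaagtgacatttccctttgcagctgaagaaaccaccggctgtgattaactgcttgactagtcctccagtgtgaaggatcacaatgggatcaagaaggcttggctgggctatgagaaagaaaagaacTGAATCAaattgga

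The whole region held 3 ARE cores, of which 2 lay in the stretch that the control peaks share. These 2 are shown on the minus strand with their flanks, the core in capitals, because NRF2 is known to bind sequences of this kind. They begin at 11095 and 11733 bp upstream of the ADH7 start.
ARE core at chr4:100367752-100367780: ttctccttgtTGACCCTGCctggagagga
ARE core at chr4:100368390-100368418: actttcactgTGACTCAGCtcttttccac

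The one at 11733 bp overlapped AP-1 and also matched the longer ARE pattern. Windows of the same 3882 bp centred on 49154 merged regions held at least 1 ARE core in 74.7% of cases and at least 3 in 18.3%. The region also held 2 AP-1 matches, against at least 2 in 46.2% of the windows, and 5 matches to the C/EBP pattern TTGCNNAA, against at least 5 in 8.85%. The 2 AP-1 matches and 3 of the 5 C/EBP matches lay in the stretch that the control peaks share. The density of ARE cores, 0.773 per kb, lay within the range of the other regions of the cluster, 0 to 0.811 per kb, and was nearly that of the ADH5 start region (0.717). A match is a match of letters and not a measured binding site.

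**Figure D1:**
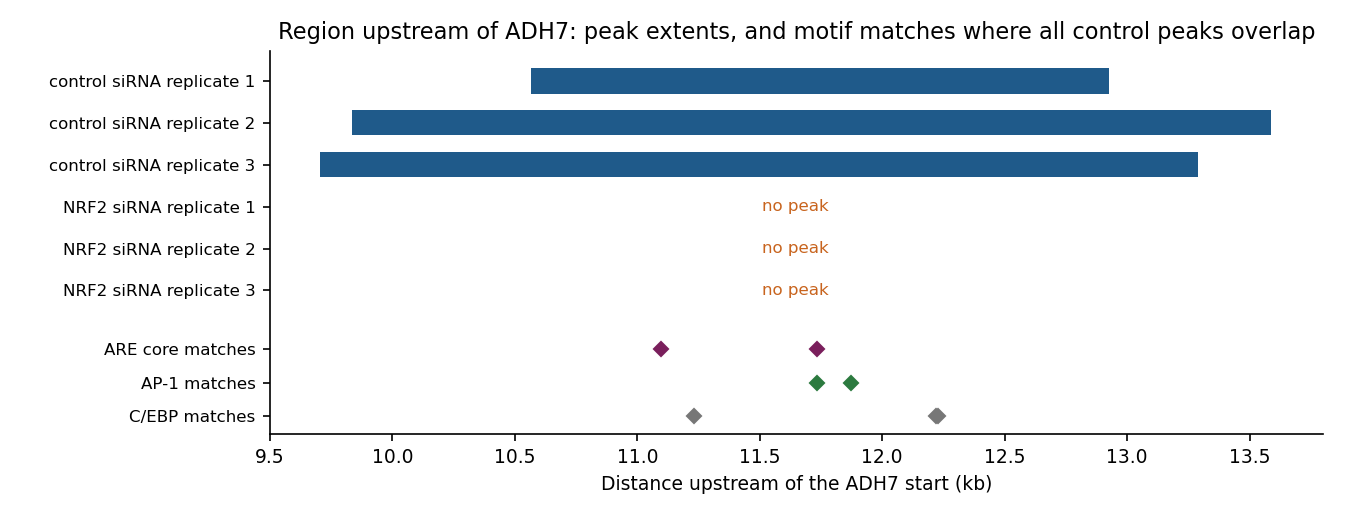
Extent of each library's H3K27ac peak in the region upstream of ADH7 (bars) and positions of the motif matches in the stretch that all control peaks share (diamonds), against the distance upstream of the ADH7 start in kb. Control peaks of 2360, 3754 and 3583 bp overlie one another, no NRF2 siRNA library has a peak, and the ARE core at 11733 bp lies near the middle of the stretch the control peaks share.

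Values in this cluster are given as the percentile of a peak's fold enrichment within its own library's list, so that 90 means stronger than 90% of that library's peaks. A library with no peak in a region has no value there and was counted as 0 in group means. In the region upstream of ADH7 the percentile was 92.7, 92.0 and 90.2 in control siRNA replicates 1, 2 and 3, and no NRF2 siRNA library called a peak. The fold enrichment of the control peaks was 8.94, 9.12 and 10.4, with −log10 q of 18.2, 21.9 and 33.1. It was the strongest region of the cluster in each control library, where the next reached 78.4, 82.4 and 84.2, and the groups did not overlap. The mean percentile was 91.6 ± 1.27 (SD, n = 3) in control and 0 in NRF2 siRNA libraries, a difference of -91.6. On the normal scores used for all regions of the series (ranks within a library turned into standard normal values), the change was -2.86 (SE 0.304), and it was -2.40, -3.02 and -3.17 in pairs 1, 2 and 3. The NRF2 siRNA scores here are the tied lowest ranks of uncalled regions, so the SE does not measure a spread of acetylation in that group. Pairs 2 and 3 alone, which share siRNA 30, differed by -91.1 percentile points.

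The lists record peaks only, so the absence of a call is not a measurement of 0 acetylation. The lowest fold enrichment in the NRF2 siRNA lists was 2.29, 1.87 and 1.92, and the lists hold no read counts. The stretch around the region was free of peaks over 369.829 kb in NRF2 siRNA replicate 1, 133.916 kb in replicate 2 and 134.037 kb in replicate 3. Over the series, 1118 of 49186 regions (2.27%) were called in all 3 control and 0 NRF2 siRNA libraries, and their median control percentile was 35.0. The cluster was chosen for a region of this kind, so its place among them is no finding.

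No region covered the ADH7 start itself. The gene's 6 annotated transcripts all began outside the called regions, and its 2 RefSeq promoter windows (250 bases before to 50 after a start, GRCh38.p14, found by exact match at chr4:100356450-100356749 and chr4:100356242-100356541 on GRCh37) lay 9624 and 9832 bp from the upstream region. The windows overlap, and the stretch they share held 1 AP-1 match, tgagtca, next to a C/EBP match, ttgctgaa. Neither window held an ARE core. Among 35116 RefSeq promoter windows, 7.71% held an AP-1 match, 10.5% a C/EBP match and 13.3% an ARE core. Within the gene, 1 weak region (chr4:100335057-100336469, intronic) was called at percentile 31.9 in control siRNA replicate 3 and in no other library.

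The other neighbours of ADH7 were weaker. The region farther upstream (chr4:100379531-100383230, 22864 bp from the gene, between genes) had percentiles of 17.8, 31.9 and 29.1 in controls and 6.19 in NRF2 siRNA replicate 1, with no call in replicates 2 and 3. Its groups did not overlap, and its score change was -0.71 (SE 0.43). By pair this was 0.13, -1.18 and -1.09, and with lists cut to equal length the change was -0.02. On the downstream side, the region between ADH1C and ADH7 (chr4:100323943-100326745) had percentiles of 51.9, 47.6 and 59.7 in controls and of 40.8 and 51.7 in NRF2 siRNA replicates 2 and 3, with no call in replicate 1. There pairs 2 and 3 differed by -6.81 and -7.97 points, and the groups overlapped.

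**Figure D2:**
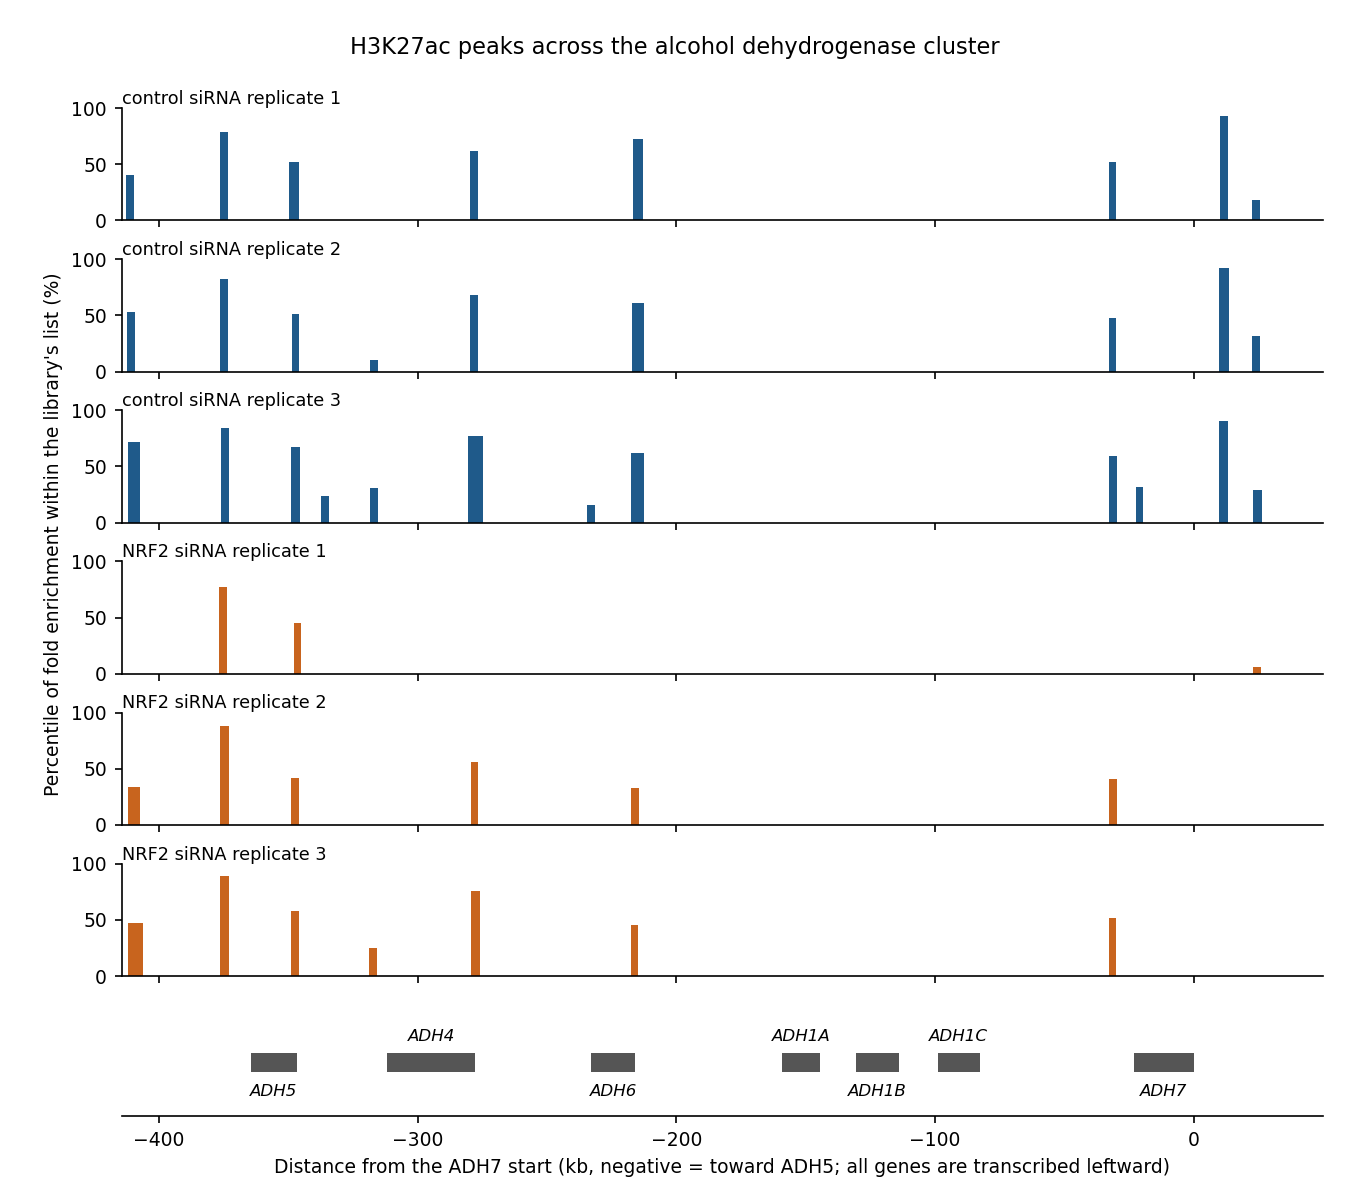
Percentile of fold enrichment within the list (y axis, %) for each region called in each of the 6 libraries, against the distance from the ADH7 start in kb, with gene bodies below. Bars span a library's peaks in a region and are drawn at least 3 kb wide. The bar just right of 0 stands at 92.7, 92.0 and 90.2 in the control libraries and is missing in all NRF2 siRNA libraries, and no bar stands over ADH1A, ADH1B or ADH1C.

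At the ethanol-oxidising genes ADH1A, ADH1B and ADH1C no library called a peak. The longest stretch of the window without a region ran from chr4:100144244 to chr4:100323942, 179.699 kb, and held all 3 genes. Their starts lay 67917, 81385 and 50040 bp from the nearest region. The 3 genes are close copies, and their RefSeq promoter windows were 82.5% (ADH1A and ADH1B), 82.9% (ADH1A and ADH1C) and 82.3% (ADH1B and ADH1C) identical in global alignment, against 44.3 to 53.7% for all other pairs in the cluster. Reads that map equally well to several copies are lost in a mapping-quality filter. In this window, 99.7% of the stretches of one read length between the flanking regions occurred only once, and 98.9% or more did within each gene. Uniqueness against the rest of the genome, and the part of mapping in the missing calls, was not tested.

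ADH5, the formaldehyde gene, carried one of the 2 regions of the cluster called in all 6 libraries. Its start region (chr4:100007005-100011191, covering exon and UTR sequence, the RefSeq promoter window and the start of the noncoding gene ENSG00000246090) had percentiles of 52.0, 51.3 and 67.5 in controls and 44.8, 41.6 and 57.8 with NRF2 siRNA. Each NRF2 siRNA library was lower than the control of the same number, with differences of -7.21, -9.69 and -9.75 points, and the groups overlapped. The group means were 56.9 ± 9.18 and 48.1 ± 8.57 (SD, n = 3 each), so that the difference of -8.88 was smaller than the spread within the control group. Its score change was -0.13 (SE 0.223), and by pair 0.06, -0.24 and -0.21, so that pair 1 went the other way on this scale.

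At ADH6 the start region (chr4:100139284-100144243, covering exon, UTR and the RefSeq promoter window) had percentiles of 72.6, 61.2 and 62.1 in controls, none in NRF2 siRNA replicate 1, and 33.0 and 45.4 in replicates 2 and 3. The groups did not overlap, and the difference of the means was -39.2, the largest in the cluster after the region upstream of ADH7. Its score change was -0.90 (SE 0.255), and the pairs differed by -72.6, -28.2 and -16.8 percentile points. Peaks covered 1047 and 1499 bp of it in NRF2 siRNA replicates 2 and 3, and 2603 (2 peaks together), 4400 and 4960 bp in control siRNA replicates 1, 2 and 3.

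ADH4 was covered only at its outermost annotated start. The region chr4:100075986-100081748 held the start of 1 of its 11 transcripts and overlapped the noncoding genes ENSG00000246090 and PCNAP1, while the RefSeq promoter window of ADH4 (chr4:100065399-100065698) lay 10288 bp away and outside every region. The percentiles were 61.9, 67.7 and 77.6 in controls and 55.9 and 76.0 in NRF2 siRNA replicates 2 and 3, with no call in replicate 1. The groups overlapped, and the pairs differed by -61.9, -11.7 and -1.59 points. In the gap between ADH5 and ADH4, a weak region (chr4:100039023-100040668) had percentiles of 10.4 and 30.8 in control siRNA replicates 2 and 3 and 24.9 in NRF2 siRNA replicate 3. The remaining weak regions near these genes, chr4:100020587-100021191 and chr4:100123380-100123634, were called in control siRNA replicate 3 alone, at percentiles of 24.1 and 15.7.

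Both regions at the left end of the window lay in METAP1, which encodes a methionine aminopeptidase and is no member of the family. The one toward the 3′ end of METAP1 (chr4:99980194-99983716, 8413 bp from ADH5) was called in every library, with percentiles of 78.4, 82.4 and 84.2 in controls and 77.5, 88.0 and 89.4 with NRF2 siRNA, and was the single region of the cluster with a higher mean after knockdown, by 3.26 points. The other (chr4:99944585-99950374) had percentiles of 39.9, 53.1 and 71.4 in controls and 33.5 and 47.5 in NRF2 siRNA replicates 2 and 3. Just outside the window, the region at the METAP1 start (chr4:99915806-99917909) was called in all libraries but NRF2 siRNA replicate 1, and the first region beyond the right edge (chr4:100460438-100463111) was called in all 6, at 53.5 to 64.1 in controls and 63.3 to 71.7 with NRF2 siRNA.

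**Figure D3:**
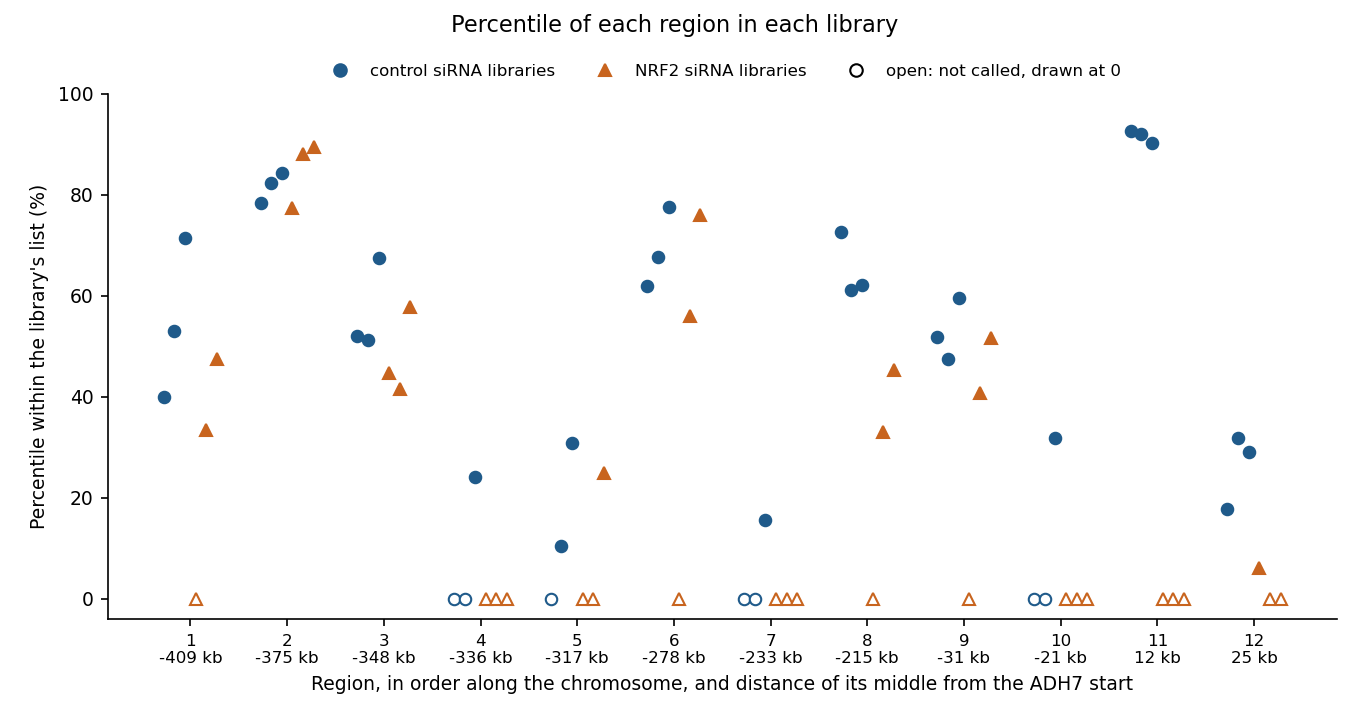
Percentile (y axis, %) of the 12 regions in each library, numbered along the chromosome with the distance of their middle from the ADH7 start. Circles are control and triangles NRF2 siRNA libraries, and open symbols at 0 mark libraries without a call. Region 11, upstream of ADH7, has 3 controls between 90.2 and 92.7 and 3 open triangles, region 2 in METAP1 overlaps between groups, and regions 4, 7 and 10 have 1 call each.

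Set side by side, the 11 other regions had a median difference of -10.6 percentile points between -39.2 and 3.26, and the region upstream of ADH7 had -91.6. Of the 11, 10 had a lower mean with NRF2 siRNA and 1 a higher. Of the 10, 3 were called in control siRNA replicate 3 alone and, with uncalled libraries at 0, could only be lower. The median of -10.6 is the value of such a region, chr4:100335057-100336469. The matching share over all regions is not given, so nothing is read from the count of 10. Of the 12 regions, 9 were called in at least 3 libraries. The 8 of these other than the one upstream of ADH7 had a median difference of -23.2 points, beside -1.87 over all 32673 such regions of the series. By score change, the 8 had a median of -0.52 between -0.90 and 0.21, beside 0.02 over all regions. Of the 8, 4 were called in every library but NRF2 siRNA replicate 1, whose missing calls took the lowest value. These 4 differed by -72.6 to -39.9 points in pair 1 and by -28.2 to -1.59 in pairs 2 and 3. Medians of the 8 without that library are not given, so nothing is read from -23.2 and -0.52. By pair, the median over the 11 regions was -7.21, -9.69 and -15.7. In 3 of the 9 regions every control percentile exceeded every NRF2 siRNA percentile (upstream of ADH7, the ADH6 start and the one farther upstream), beside 12.8% of all regions. The cluster was chosen on this contrast, so nothing is read from that count.

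NRF2 siRNA replicate 1 stood apart from the other libraries. It had the shortest list, 23885 peaks against 27941 to 41571 in the other libraries, and called 3 of the 12 regions, against 8, 9 and 12 in controls and 6 and 7 in the other NRF2 siRNA libraries. Of the 6 regions of the cluster called in the 5 other libraries it lacked 4, beside 19.4% of such regions over the series. Without it the median difference of the other regions was -7.26 points. Leaving out control siRNA replicate 1, 2 or 3 in turn gave -15.9, -15.9 and -19.2, and equal list lengths gave -21.0. The window held 8 regions with equal list lengths and 9 without control siRNA replicate 3, so those medians cover fewer regions. NRF2 siRNA replicate 1 is also the library with siRNA 28, and its pair has peak names of another form than pairs 2 and 3. Both libraries of pair 1 were sequenced less deeply, per the study's reporting summary, so batch, siRNA, depth and list length cannot be told apart. No region of the cluster was called with NRF2 siRNA and missed in all controls.

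Peaks covered 19.3, 24.2 and 33.0 kb of the window in control siRNA replicates 1, 2 and 3, and 3.85, 15.6 and 19.999 kb in NRF2 siRNA replicates 1, 2 and 3. The largest NRF2 siRNA value lay just above the lowest control value, and in each pair the NRF2 siRNA library covered less, with differences of -15.5, -8.56 and -13.0 kb. The means were 25.5 ± 6.95 and 13.2 ± 8.35 kb (SD, n = 3 each). Without the region upstream of ADH7 the difference of -12.4 kb became -9.13 kb, and without NRF2 siRNA replicate 1 it became -7.71 kb. As a share of the window these were 5.49% ± 1.496 and 2.83% ± 1.80, with pair differences of -3.33, -1.84 and -2.81 percentage points. Over all of chromosome 4, peaks covered 2.31% ± 0.725 in control and 2.08% ± 0.867 in NRF2 siRNA libraries, and each pair was also lower there, with differences of -0.426, -0.0974 and -0.151 points.

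**Figure D4:**
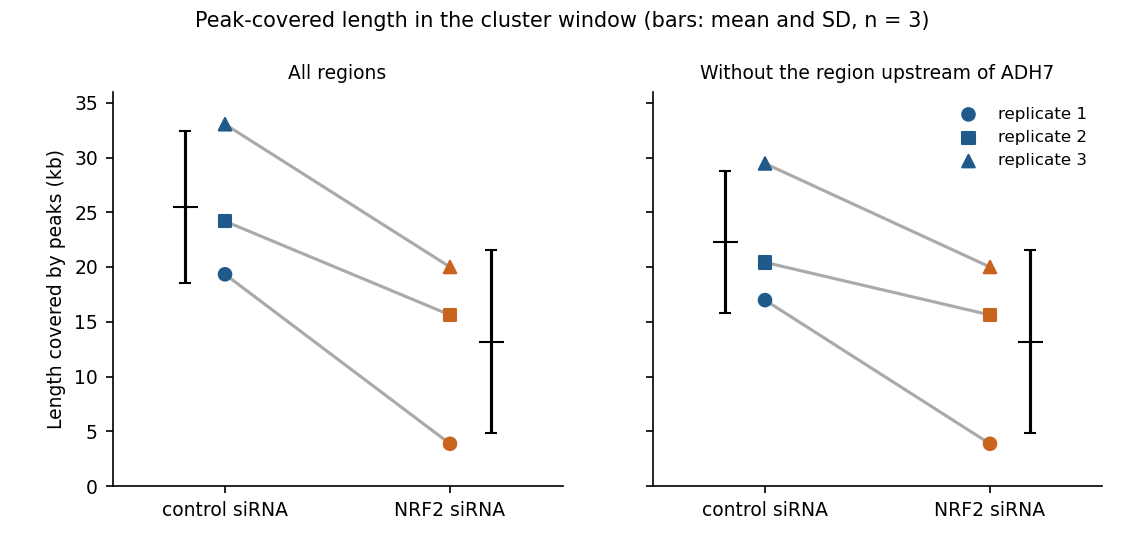
Length of the window covered by peaks (kb) in each library, with all 12 regions (left) and without the region upstream of ADH7 (right). Lines join libraries of the same replicate number, and bars give the mean and SD of 3 libraries. Every line runs downward in both panels, from 19.3 to 33.0 kb in controls to 3.85 to 19.999 kb with NRF2 siRNA when all regions are counted.

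The pathway around these enzymes was followed through 22 further genes that oxidise, bind or reduce retinoids and aldehydes. Of these, 18 had a region called in at least 3 libraries in the gene or within 20 kb, 63 regions in all. In limma over all 32673 regions, 9 of the 63 fell with NRF2 siRNA (14.3%, beside 3.39% of all regions) and 0 rose (beside 2.01%). The gene list was chosen with earlier results of these data known, so these shares are a description and no independent test. Neighbouring regions were counted separately: 3 of the 9 lay near ALDH3A1 and 2 near ALDH9A1. With the replicate number as a block, 17 fell, beside 6.62% of all regions, and 0 rose, beside 5.72%. Of the 63, 6 were called in no NRF2 siRNA library, so their direction was fixed in either fit. Of the 9, 3 were called in no NRF2 siRNA library and so entered the fit through the control libraries alone, which fixes their direction, and they are described without a p. Among the 57 regions called in at least 1 library of each group, 6 fell, beside 2.17% of such regions over the series. Within 5 kb of a gene only 1 region fell, and the number of regions that near is not given, so no share is read from it. The median score change over the 63 regions was -0.36, beside 0.02 over all regions. Leaving out single libraries moved the count of 9. It was 0 without control siRNA replicate 2 (with 19 regions at an unadjusted p under 0.05, against 28). It was 5 and 1 without control siRNA replicates 1 and 3, and 1 and 3 without NRF2 siRNA replicates 2 and 3. In these settings the regions that fell over the whole series also dropped, to between 0 and 573 of 32673, against 1108 with all libraries. Without NRF2 siRNA replicate 1 both counts rose, to 11 and 1716. The shifts were thus not particular to the pathway regions.

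Among the aldehyde oxidising genes, 5 of 17 regions fell (29.4%, beside 3.39% of all regions). Of the 5, 2 were called in no NRF2 siRNA library, which fixes their direction, so the 29.4% is not read as a result. By place, 1 of the 5 lay over the start of a listed gene, 2 lay nearer to the starts of other genes and 2 lay in MGST3. At ALDH3A1, which oxidises aromatic and lipid-derived aldehydes, the region over the gene start (chr17:19645793-19662424) had percentiles of 99.97, 99.99 and 99.96 in controls and 92.7, 93.3 and 94.6 with NRF2 siRNA. The groups did not overlap, and the score fell by 1.91 (SE 0.199, limma adjusted p = 0.00628), the best-ranked region of its role. Both of its neighbours also fell, and they lay nearer to the starts of SLC47A2 and ULK2 than to that of ALDH3A1. The score change was -0.84 at chr17:19630609-19633340 (SE 0.196, limma adjusted p = 0.0413). At chr17:19663672-19667102, which no NRF2 siRNA library called, the control percentiles were 24.2, 57.5 and 63.2 and the score change was -1.51 (SE 0.304). The 2 regions within 20 kb of ALDH9A1 that fell lay in MGST3, a neighbouring glutathione transferase gene, one over its start (chr1:165612900-165617509, score change -1.31, SE 0.257, limma adjusted p = 0.0253) and one 717 bp from a start (chr1:165619792-165621090). The latter had control percentiles of 83.3, 70.9 and 82.6 and no call with NRF2 siRNA, with a score change of -2.30 (SE 0.314). The region at the start of ALDH9A1 itself had a score change of -0.20 (SE 0.199, limma adjusted p = 0.601). Near ALDH2, the mitochondrial enzyme that clears the acetaldehyde made from ethanol, the best-ranked region had -0.62 (SE 0.218, limma adjusted p = 0.13).

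Of the genes that oxidise ethanol by other routes, CYP2E1 had no fitted region and CAT, the gene for catalase, had 2. The best-ranked of them, 9958 bp upstream of CAT (chr11:34447069-34450523), had percentiles of 95.1, 91.0 and 92.2 in controls and 8.61, 30.9 and 59.8 with NRF2 siRNA. Every control stood above every NRF2 siRNA library, and the score fell by 1.64 (SE 0.234, limma adjusted p = 0.01). This region was called in all NRF2 siRNA libraries, unlike the one at a like distance from ADH7, which was called in none.

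Of 36 regions near genes of retinoid oxidation and binding, 2 fell (5.56%), a share near the 3.39% of all regions. One lay 10317 bp upstream of ALDH1A3, a retinal dehydrogenase (chr15:101406470-101407602), with percentiles of 50.6, 50.6 and 51.6 in controls and no call with NRF2 siRNA, with a score change of -1.501 (SE 0.311). The other lay beyond the 3′ end of RDH10, which oxidises retinol to retinal as ADH7 does (chr8:74251699-74255463), with 92.2, 80.1 and 79.8 in controls and 3.90, 44.7 and 51.8 with NRF2 siRNA, a fall of 1.17 (SE 0.255, limma adjusted p = 0.0342). The region at the RDH10 start had 83.3, 91.0 and 94.0 in controls and 86.0, 86.1 and 90.3 with NRF2 siRNA, and a score change of -0.09 (SE 0.2017, limma adjusted p = 0.835). The best-ranked region of this role, near ALDH1A1 (chr9:75590699-75618708), stood between 99.68 and 99.9988 in the 6 libraries, with a score change of -0.46 (SE 0.292, limma adjusted p = 0.393). CYP26A1 and CRABP2 had no fitted region.

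ESD, the esterase that completes the formaldehyde route begun by ADH5, had 1 region, with a score change of -0.05 (SE 0.203, limma adjusted p = 0.926). Of 7 regions near the reductases AKR1A1 and AKR1B10, 1 fell (14.3%, beside 3.39% of all regions): 9880 bp upstream of AKR1B10 (chr7:134197388-134202439), the percentiles were 72.3, 79.9 and 63.7 in controls and 3.57, 19.0 and 11.9 with NRF2 siRNA (score change -1.34, SE 0.320, limma adjusted p = 0.0465). The best-ranked region of this role, within 20 kb of AKR1B10 and over the start of AKR1B15, had a score change of -0.54 (SE 0.201, limma adjusted p = 0.148).

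**Figure D5:**
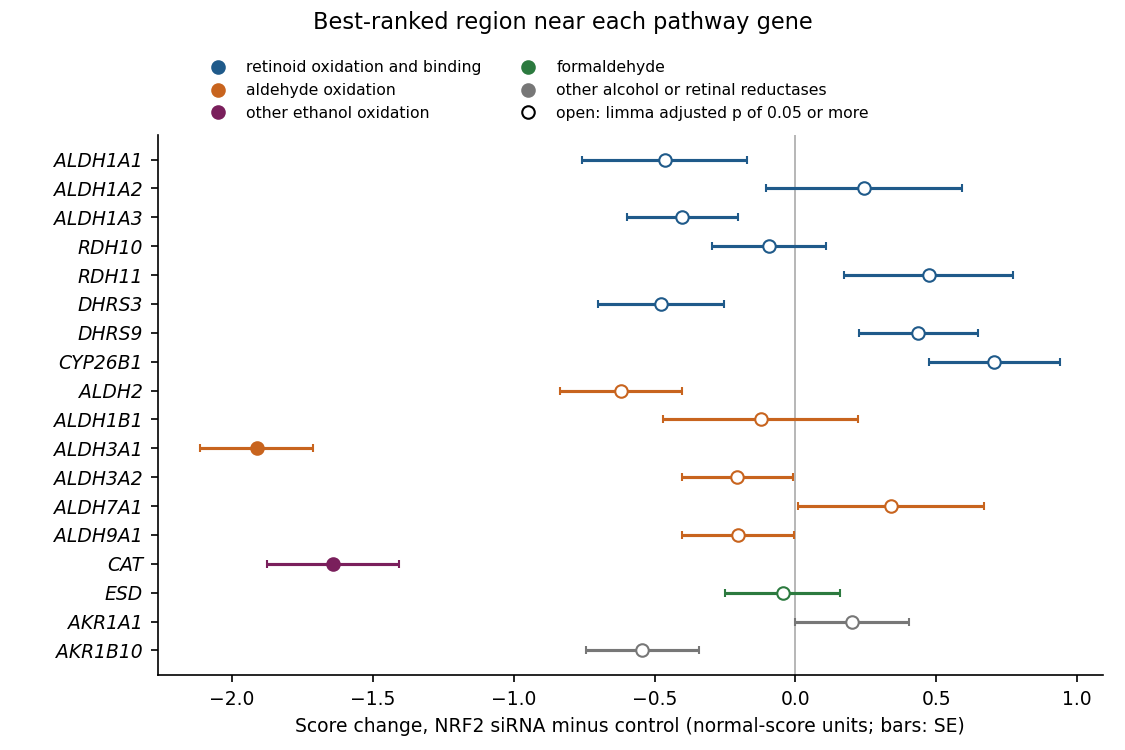
Score change with NRF2 siRNA (x axis, normal-score units, bars giving the SE) of the best-ranked region within 20 kb of each of 18 pathway genes. The plotted region held the start of another coding gene instead for ALDH1A2 (LIPC), ALDH1A3 (LRRK1), RDH11 (VTI1B), ALDH7A1 (PHAX) and AKR1B10 (AKR1B15). For ALDH1A1, DHRS9, CYP26B1, ALDH2 and CAT it held no coding start. Filled points passed limma's adjusted threshold of 0.05: ALDH3A1 at -1.91 and CAT at -1.64, while the other 16 did not.

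For scale, the same percentiles were read at starts of known NRF2 targets. At NQO1, a quinone reductase, the start region had 99.3, 99.1 and 99.4 in controls and 95.1, 87.2 and 94.5 with NRF2 siRNA. At AKR1C1 the values were 59.5, 65.8 and 63.7 in controls, and 14.4 and 25.3 in NRF2 siRNA replicates 2 and 3, with no call in replicate 1. The AKR1B10 start region had 85.3, 87.1 and 87.3 in controls and 86.2, 91.2 and 89.9 with NRF2 siRNA. The peaks at both NQO1 and AKR1B10 starts were thus still called in all libraries, and the AKR1C1 start lost its call in NRF2 siRNA replicate 1. The region upstream of ADH7 was called in no NRF2 siRNA library, but it lies away from a start and was chosen for its fall.

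Over the series, the pattern most like that of the region upstream of ADH7 was found by the Euclidean distance of the 6 percentiles, with uncalled libraries at 0. The nearest was chr2:29024514-29027306 in SPDYA and PPP1CB (distance 1.70 percentile points), then chr1:179027485-179032685 in FAM20B (2.11), chr2:75464403-75468613, 37757 bp from the TACR1 start (3.32), chr1:110260740-110262950 in GSTM5 (4.75) and chr14:44175173-44177303, between genes and 799183 bp from the nearest coding start (7.88). All 5 were called in 3 control and 0 NRF2 siRNA libraries. They were found by this likeness, so their pattern is no separate evidence.

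Starts of the epithelial genes KRT8, KRT18, CDH1 and EPCAM and of the foregut factors FOXA1 and FOXA2 were called in all 6 libraries. Those of the blood genes PTPRC and CD3E, the endothelial gene CDH5, the fibroblast gene COL1A2 and the hepatocyte gene APOA1 were called in none, and that of ALB, another hepatocyte gene, only in NRF2 siRNA replicates 2 and 3, at percentiles of 12.5 and 25.8.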

How the data were processed

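A549 H3K27ac libraries, 3 with control and 3 with NRF2 siRNA, were analysed, and the 2 input samples were not used here. The authors trimmed reads with cutadapt 1.15, aligned them to hg19 with Bowtie2 2.2.6, discarded poorly mapped reads (SAMtools), ran MACS2 2.1.0.20151222 in broad mode on each library and removed blacklisted peaks (submitters' processing notes and methods). The deposited lists give an integer score (not used for ranking), a fold enrichment (a ratio to the background), and p-values and q-values as −log10. They hold no read counts, so no value was scaled to depth, and fold values were compared only as ranks within a list. Per the study's reporting summary, both libraries of pair 1 had fewer mapped reads than those of pairs 2 and 3, and those totals were not used here.

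Peaks overlapping by at least 1 bp were merged, and each region took a library's highest fold. Regions called in at least 3 libraries were ranked within each library (uncalled ones tied lowest), turned into normal scores and compared with limma 3.58.1 (R 4.3.3, lmFit and eBayes, no covariate, Benjamini-Hochberg adjustment over 32673 regions, threshold 0.05). The step was tested on simulated data. Python 3.11.15 did the rest, with GENCODE genes lifted to GRCh37 (0 regions past a chromosome end) and RefSeq promoters of GRCh38.p14 matched by symbol (7 of 7 genes).

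The numbers in the titles pair the libraries: deviations of same-numbered libraries from their group means correlated at 0.398, 0.199 and 0.363. Peak names of replicate 1 lack the prefix shared by replicates 2 and 3. The members, gene lists and motifs were chosen with earlier results of these data known. Named were all 7 genes and every region of the window, pathway regions past the threshold and the best-ranked region of each role, starts of NQO1, AKR1C1 and AKR1B10, and the 5 regions of nearest pattern. ALDH9A1, RDH10 and ALDH2 values at the best-ranked region were added after they were seen. Some items are not reported here. Of the marker genes, PECAM1 had no entry in the annotation used. Alternatives were other merging, q-value, list length, window, region filters, a replicate block and leaving out each library.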

Additional observations from a re-analysis of the deposited data

Results flagged for a closer look

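At the region toward the 3′ end of METAP1 (chr4:99980194-99983716) the siRNA 28 pair and the siRNA 30 pairs moved in opposite directions. The percentile differed by -0.967 points in pair 1, and by 5.56 and 5.20 points in pairs 2 and 3, so that the siRNA 28 pair stood -6.35 points from the mean of the siRNA 30 pairs. The difference was not tested, and with 1 pair against 2 it has no replicate on one side. On the normal scores all 3 pairs differed upward, by 0.10, 0.24 and 0.31.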

How the results depend on the processing

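The score change of the region upstream of ADH7 kept its direction and size under all 12 alternatives that could fit it, and leaving out single libraries gave -3.19 to -2.60. Chosen for its fall and called in no NRF2 siRNA library, the region could only be lower in every setting, so this is no support. Its percentile difference was -83.1 with only peaks of −log10 q of at least 5 and -87.6 with equal list lengths, and -92.3 to -91.1 without single libraries. The q-value limit left 7 regions in the window and a covered length difference of -7.75 kb, and leaving out single libraries gave 9 to 13 regions and -15.8 to -7.71 kb. The median of the other regions was -21.0 with equal list lengths, which left 8 regions in the window, and -19.2 to -7.26 without single libraries. The regions counted differ between these settings, so these medians are not all over the same 11. The -7.71 kb was seen without NRF2 siRNA replicate 1.

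Counts across all regions moved more. With the replicate block, 2164 regions were lower and 1868 higher, and with the replicate block and equal list lengths together 2041 and 2151. Equal list lengths gave 1185 higher, eBayes with trend and robust options 1175 higher, and regions called in all 6 libraries 369 lower and 341 higher. Leaving out single libraries gave 0 to 1716 lower and 0 to 882 higher. Without control siRNA replicate 2, limma made 0 calls of 32673 regions, although 6033 had an unadjusted p under 0.05, and 7361 did when no library was left out. In the window, limma counts are printed for completeness and are no test of its regions, since the cluster was chosen on this contrast. The region upstream of ADH7 entered the fit through the control libraries alone, which fixes its direction. With all libraries 1 region was lower, the one upstream of ADH7, beside 3.39% of all regions. Equal list lengths called 3 lower: upstream of ADH7, the ADH6 start and the METAP1 region at the left edge. The same 3 were called with the replicate block added. Over the series these settings called 1321 and 2041 of 23179 regions lower. Regions called in all 6 libraries gave 0, a set the ADH7 region is not in, and single omissions gave 0 to 2, the 2 without NRF2 siRNA replicate 1 being the regions 9706 and 22864 bp upstream of ADH7. No setting called a window region higher. With the replicate block 17 pathway regions were lower, beside 2164 of 32673 regions over the series. Adding equal list lengths also gave 17, beside 2041 of 23179. Among regions called in all 6 libraries 4 pathway regions were lower, beside 369 of 16845. The count was 1 within 5 kb and 14 within 100 kb of the gene, and 0 to 11 without single libraries. The numbers of pathway regions in these subsets are not given, so no share is read from the counts. Pathway regions called higher were 2 with the block and equal list lengths, 1 with trend and robust options, 1 within 100 kb and 0 to 1 without single libraries. The causes of these shifts were not tested. ARE cores upstream of ADH7 numbered 3 with merging up to 1 kb. The longer pattern had 2 matches there, of which only the one at 11733 bp is also one of the cores. The other, at 10485 bp, lies outside the stretch that the control peaks share. The values over pairs 2 and 3 alone were added after the data were seen.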
